A study of Drosophila melanogaster with 3 samples.

Results

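The genes for aminoacyl-tRNA synthetases, the enzymes that join each amino acid to its transfer RNA, were examined for binding of CG10431 in Drosophila melanogaster embryos. They were taken from the annotation by symbol: protein-coding genes named by 1 or 2 three-letter amino acid codes followed by RS, with or without the suffix -m. The rule gave 33 of 13986 protein-coding genes, 18 without the suffix (cytosolic) and 15 with it (mitochondrial). It used no measured value. The alpha and beta subunits of the cytosolic phenylalanyl enzyme have symbols of another form and fall outside it.

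All samples belong to 1 group, with no second condition: whole embryos aged 0 to 12 h, male and female pooled, from a transgenic line that stably expresses CG10431 with GFP fused at its C terminus. The 3 biological replicates were assayed by chromatin immunoprecipitation and sequencing (ChIP-seq) of chromatin sonicated to 200 to 800 bp. Their free-text labels name an input control, while the assay, antibody and file notes describe a ChIP, and they are read here as ChIP samples. Each replicate has a list of 30000 candidate entries (peaks together with background), the pooled reads gave a list of the same length, and the authors' irreproducible discovery rate (IDR) analysis kept 3314 pooled entries. Those 3314 are the pooled entries of highest signal, with 187 as the lowest; the signal has no stated scale and is compared only within a list. Every list draws on a whole embryo, so the cell types that contribute a summit are unknown, and all calls were made against the same control.

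Synthetases read the genetic code: each recognises its amino acid and the matching transfer RNAs and links them through an ester bond, and the charged transfer RNA is then carried to the ribosome by an elongation factor. Cytosolic enzymes serve the ribosomes that translate nuclear messages, and mitochondrial enzymes, encoded in the nucleus and imported, serve the organelle's own ribosomes. The suffix sorts genes by symbol alone. In human cells, for example, the glycyl and lysyl enzymes of both compartments come from the same gene, and the flies' list holds no GlyRS-m or LysRS-m.

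CG10431 was found at the starts of 9 synthetase genes, 7 cytosolic and 2 mitochondrial. The cytosolic ones were SerRS, AspRS, ThrRS, MetRS, GluProRS, LysRS and GlyRS, and the mitochondrial ones ArgRS-m and CysRS-m. Bound here means an IDR summit within 500 bp of a transcript start. All 9 share that stretch with the start of at least 1 gene transcribed the other way, and their peaks ranked between 919 and 3278 among the 3314, apart from those of ArgRS-m at 151 and 480. The share bound was 27.3% of the 33 genes (exact 95% interval 13.3 to 45.5), against 14.8% of all protein-coding genes. It depended on the replicates and on the strength of the peaks: with IDR peaks that recur in both other replicates it was 12.1% without replicate 1, 18.2% without replicate 2 and 15.2% without replicate 3, against 10.7%, 10.0% and 10.7% of all protein-coding genes. Among the 1657 strongest IDR peaks it was 6.06%, only 2 of the 33 genes, against 7.80%. With so few genes this shows only that the share was no longer above that of all protein-coding genes.

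ArgRS-m (FBgn0037526; 3R, 7887045 to 7890150, plus strand), which encodes the mitochondrial arginyl enzyme, carried the strongest peak of the family. Its pooled signal was 899, and its signal was 241, 350 and 323 in replicates 1, 2 and 3, where it ranked 243, 179 and 96. It was thus near the top of every list. The summit (dm6, 7886798) lay 247 bp upstream of ArgRS-m and 65 bp upstream of CG17816, which is transcribed the other way from a start 312 bp off. A second IDR summit (7887002, signal 541) lay 43 bp upstream of ArgRS-m, so the strongest summit was on the neighbour's side of the shared promoter and the next on the synthetase's side. The intervals of the 2 peaks overlap. In replicates 2 and 3 the strongest entry within 250 bp was the same for both summits, so they are not read as separate sites. The 11 bases centred on each summit are in capitals in these RefSeq sequences (release 6 assembly, plus strand, 5′ to 3′), shown to set the 2 summits side by side.
ArgRS-m, strongest summit (chr3R:7886738-7886858): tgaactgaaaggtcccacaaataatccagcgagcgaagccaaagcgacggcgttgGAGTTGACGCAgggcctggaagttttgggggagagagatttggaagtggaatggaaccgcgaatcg
ArgRS-m, second summit (chr3R:7886942-7887044): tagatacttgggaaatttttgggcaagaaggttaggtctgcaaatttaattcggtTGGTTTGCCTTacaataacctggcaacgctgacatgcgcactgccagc

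**Figure D1:**
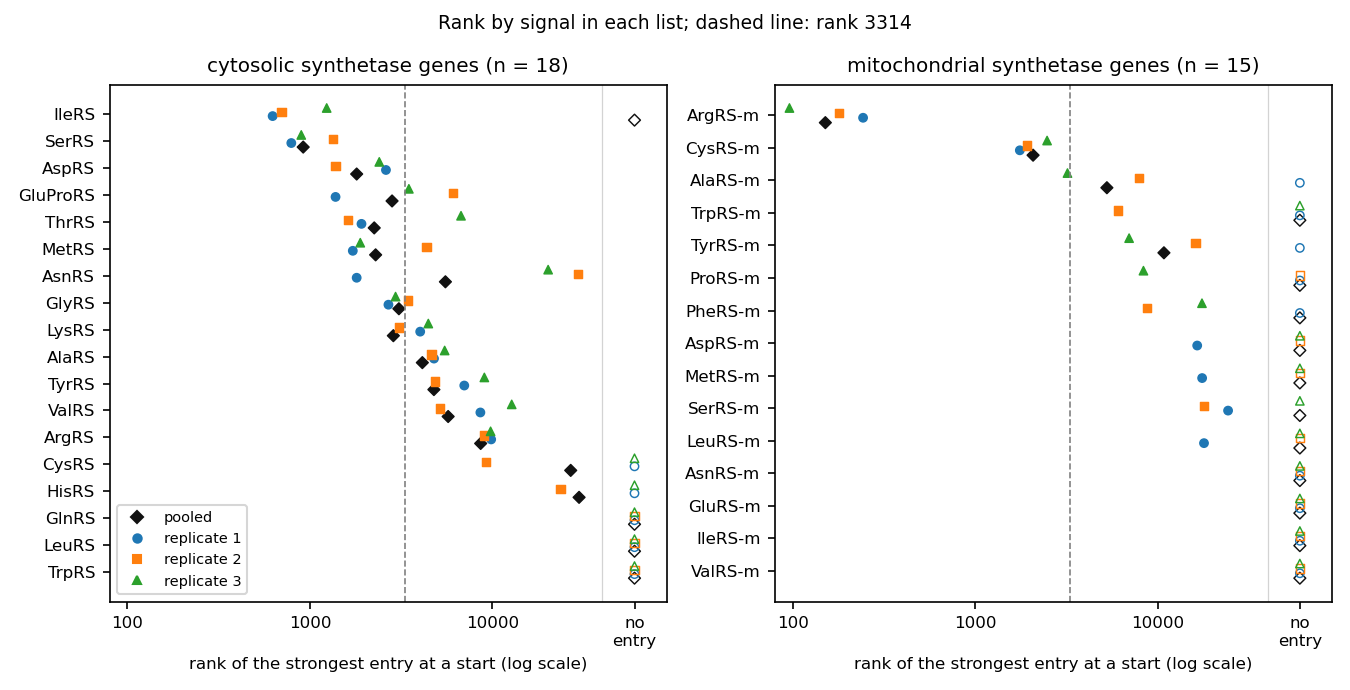
Rank by signal of the strongest entry within 500 bp of a start, for the 18 cytosolic genes (left) and the 15 mitochondrial genes (right), on a log axis; filled symbols are ranks in the pooled list and in replicates 1, 2 and 3, open symbols at the right edge mark lists with no entry, and the dashed line is rank 3314. ArgRS-m stands at 96 to 243 in the 4 lists, SerRS at 791 to 1341, and IleRS is at 625 to 1236 in the replicates with no pooled entry.

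SerRS (FBgn0031497; 2L, 3035493 to 3037403, minus strand), for the cytosolic seryl enzyme, was the strongest cytosolic gene, with a pooled signal of 381 at rank 919. Replicates 1, 2 and 3 gave 132, 131 and 119, at ranks 791, 1341 and 897. It was the only bound cytosolic gene among the 1657 strongest IDR peaks. Its summit (3037388) was in the 5′ UTR, 15 bp downstream of a SerRS start and 23 bp upstream of a start of CG17260, and those starts are 8 bp apart. Measured to the nearest start of the gene, no other bound member had its strongest summit downstream.

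ThrRS, GluProRS, GlyRS and LysRS were bound at ranks between 2251 and 3073. ThrRS (FBgn0027081; 2L, 12103751 to 12107170, plus strand), for the threonyl enzyme, had a pooled signal of 235 at rank 2251, and ranked 1917, 1616 and 6727 in replicates 1, 2 and 3. Replicate 3 thus placed it well below the other replicates. Its summit (12103489) was 262 bp upstream of ThrRS and 204 bp upstream of Patsas, which encodes a predicted palmitoyltransferase. GluProRS (FBgn0005674; 3R, 23952136 to 23958391, minus strand) encodes a single protein with both the glutamyl and the prolyl activity. It had a signal of 205 at rank 2819, and ranks of 1382, 6056 and 3485, so replicate 1 alone placed it inside its own strongest 3314. The summit (23958624) was 27 bp from the start of AP-1sigma, a clathrin adaptor subunit, and 233 bp from that of GluProRS.

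GlyRS (FBgn0027088; 3L, 15095142 to 15097686, plus strand), for the glycyl enzyme, had 2 IDR summits, with signals of 196 and 195 at ranks 3073 and 3090. The replicates ranked it 2693, 3456 and 2946. These were 232 and 24 bp upstream of its start, on a stretch shared with Plp, which encodes a pericentrin-like centrosome protein, and with sstn. LysRS (FBgn0027084; X, 9606363 to 9608884, minus strand), for the lysyl enzyme, had a signal of 204 at rank 2865, with its summit 5 bp upstream of the nearest start and 38 bp downstream of another, in the 5′ UTR of the longer transcript. It ranked 4020, 3065 and 4453 in replicates 1, 2 and 3, and Hecw, a HECT-type ubiquitin ligase gene, starts 62 bp off on the other strand. Neither gene was far above the lowest IDR signal of 187.

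The stretches around 3 of these summits are given because each lies between a pair of divergent starts and they differ in base composition (RefSeq, release 6 assembly, plus strand, cut where an annotated exon begins, with the 11 bases at the summit in capitals). G and C make up 27.3% of the ThrRS stretch, 37.9% of that of GluProRS and 19.8% of that of GlyRS, against 53.7% of the stretch at the strongest ArgRS-m summit. At the second summits the values were closer, 47.6% for GlyRS and 44.7% for ArgRS-m.
ThrRS (chr2L:12103429-12103549): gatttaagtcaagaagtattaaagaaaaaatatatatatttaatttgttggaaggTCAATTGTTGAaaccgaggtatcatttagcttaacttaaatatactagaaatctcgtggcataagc
GluProRS (chr3R:23958564-23958650): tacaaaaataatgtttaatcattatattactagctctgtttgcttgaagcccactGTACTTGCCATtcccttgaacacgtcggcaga
GlyRS, first summit (chr3L:15094850-15094970): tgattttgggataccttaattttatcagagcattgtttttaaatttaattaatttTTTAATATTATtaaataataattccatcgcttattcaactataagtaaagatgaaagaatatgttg

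IleRS (FBgn0027086; 3L, 22288665 to 22292810, plus strand), for the cytosolic isoleucyl enzyme, was not bound by the IDR list, yet it was stronger in the replicates than most bound members. Replicates 1, 2 and 3 gave it signals of 148, 185 and 101, at ranks 625, 699 and 1236, with summits 220, 189 and 108 bp upstream of its start. In replicates 1 and 2 no other cytosolic gene ranked as high, and in replicate 3 only SerRS did. The pooled list had no entry there: its nearest summit was 11217 bp away, at rank 7120. Of the strongest 3314 entries of replicate 1, 2030 were shared with both other replicates, and 10 of these (0.493%) had no pooled summit within 500 bp; replicates 2 and 3 also gave 10 each (0.492% of 2032 and 0.486% of 2056). What kept these places out of the pooled list was not tested. The stretch between the starts of IleRS and Hem, a WAVE complex gene 470 bp off on the other strand, is shown at the replicate 1 summit, with its 11 bases in capitals.
IleRS (chr3L:22288385-22288505, plus strand): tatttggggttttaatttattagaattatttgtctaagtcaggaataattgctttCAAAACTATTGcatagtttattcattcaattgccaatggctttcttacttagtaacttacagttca

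A further trio of bound genes completed the set. AspRS, for the aspartyl enzyme (FBgn0002069; 2R, 12877004 to 12883168, plus strand), had 2 IDR summits, with signals of 267 and 188 at ranks 1804 and 3278. It ranked 2610, 1381 and 2399 in replicates 1, 2 and 3, inside the strongest 3314 of each. The stronger summit (12879923) was 361 bp upstream of the nearest AspRS start and 125 bp upstream of a start of Nmda1, and the closest starts of the 2 genes are 54 bp apart. The AspRS gene also has a start farther upstream, so both summits lay within the gene.

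MetRS, for the cytosolic methionyl enzyme (FBgn0034401; 2R, 18846858 to 18850599, minus strand), had a signal of 232 at rank 2291. It ranked 1718, 4361 and 1888 in the replicates, so replicate 2 placed it outside its strongest 3314. The summit (18850763) was 164 bp upstream of MetRS and 81 bp upstream of CG15084. CysRS-m, for the mitochondrial cysteinyl enzyme (FBgn0033900; 2R, 14159096 to 14161262, minus strand), had a signal of 245 at rank 2074, with ranks of 1755, 1921 and 2475. All replicates thus found it, 57 bp upstream of its start and 111 bp upstream of O-fut1, which encodes the fucosyltransferase that modifies Notch.

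**Figure D2:**
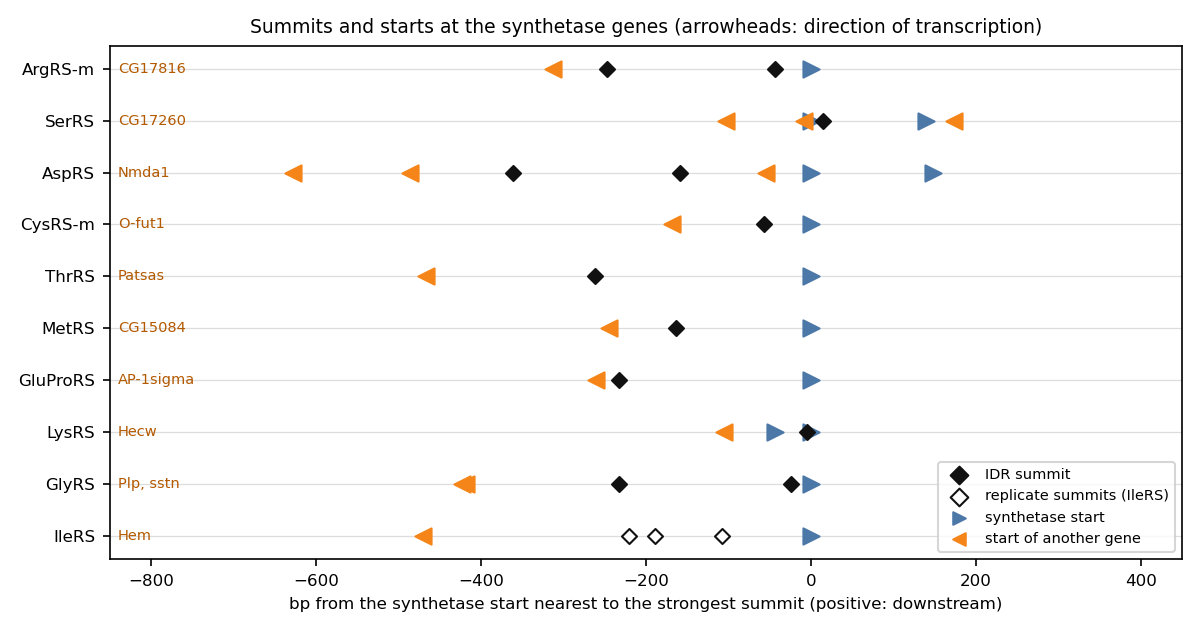
Positions in bp relative to the synthetase start nearest to the strongest summit, drawn so that the synthetase is transcribed to the right, for the 9 bound genes and IleRS; black diamonds are IDR summits, open diamonds the 3 replicate summits at IleRS, and arrowheads are starts of the synthetase (blue) and of other genes (orange, named at the left). Each summit lies between some start of the synthetase and some divergent start of another gene. At ArgRS-m they are at -247 and -43 bp, with the start of CG17816 312 bp upstream. At SerRS, LysRS and AspRS the summits lie outside the gap between the closest divergent starts.

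Divergent starts were the feature that the bound members shared. A head-to-head partner, meaning another gene on the other strand whose start lies 0 to 1000 bp upstream, was present at 23 of the 33 genes, 16 cytosolic (88.9%) and 7 mitochondrial (46.7%), against 39.6% of all protein-coding genes. Of the 23 with a partner 9 were bound (39.1%), against 24.5% of all protein-coding genes with one. Of the 10 without a partner 0 were bound, which allows a share of up to 30.0%, against 8.46% of all such genes. Among genes with a partner 7 of 16 cytosolic (43.8%) and 2 of 7 mitochondrial genes (28.6%) were bound. The number of head-to-head genes moved with the class, and its part in the difference between classes was not tested.

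**Figure D3:**
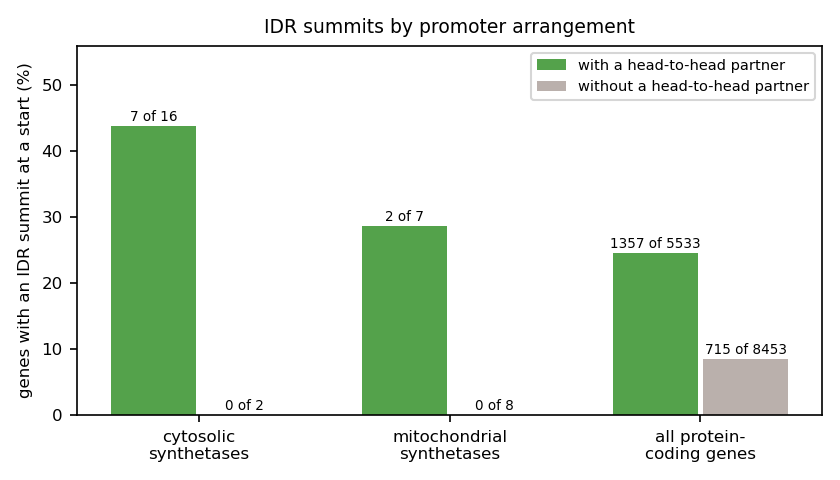
Share of genes with an IDR summit within 500 bp of a start (y axis, %), by whether a head-to-head partner is present (green) or not (grey), with counts above the bars. Bound synthetases are found in the green bars, at 7 of 16 cytosolic and 2 of 7 mitochondrial genes, and all protein-coding genes stand at 24.5% and 8.46%.

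The summits could not be given to the synthetases alone. Each of the 12 IDR peaks at the 9 genes had the start of another gene within 500 bp of its summit, and for 7 of them the nearest start belonged to that other gene. For the strongest summit of each gene the other start was nearer at 6 of 9 (66.7%), against 26.8% of the 2072 bound protein-coding genes, of which 56.9% had another gene in the window at all. Against the nearest start of the same gene the summit was upstream at 8 of 9 (88.9%, against 79.5%), at a median distance of 232 bp (136 bp for all bound genes). AspRS and LysRS also have a start farther upstream than the summit. The median signal was 235 against 287, and the median rank 2251 against 1572. A pair of IDR entries was found at 3 of 9 genes (33.3%, against 10.9%), ArgRS-m, AspRS and GlyRS. The intervals of each pair overlap, and 10 of the 12 peaks have the same width of 424 bp. A pair is therefore not read as 2 separate sites. In the rule's own terms, the bound gene farthest from a summit was ThrRS at 262 bp, and the next nearest summit of an unbound gene was 1098 bp from AlaRS.

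Among the 24 genes that were not bound, 9 had a pooled candidate summit at a start. AlaRS, for the cytosolic alanyl enzyme, came closest, with a signal of 165 at rank 4130 and ranks of 4783, 4642 and 5473 in replicates 1, 2 and 3. It was followed by TyrRS (rank 4778), AlaRS-m (5262), AsnRS (5525), ValRS (5719), ArgRS (8618) and TyrRS-m (10804), while CysRS (26832) and HisRS (29819) were near the end of the list. AsnRS, for the cytosolic asparaginyl enzyme, differed most between replicates, at rank 1804 in replicate 1 and 29478 and 20185 in replicates 2 and 3. AlaRS-m ranked 3201 in replicate 3, 7892 in replicate 2 and was not listed in replicate 1.

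A pooled candidate summit was present at 18 of the 33 genes (54.5%), against 46.7% of all protein-coding genes, and where there was one 9 of 18 were bound, against 31.7%. By class it was present at 14 of 18 cytosolic (77.8%) and 4 of 15 mitochondrial genes (26.7%). The 15 genes with none fell into 2 groups. IleRS and 7 mitochondrial genes (AspRS-m, LeuRS-m, MetRS-m, PheRS-m, ProRS-m, SerRS-m and TrpRS-m) had an entry in at least 1 replicate, and the 7 mitochondrial genes ranked between 6049 (TrpRS-m, replicate 2) and 24265 (SerRS-m, replicate 1). The other 7, GlnRS, LeuRS, TrpRS, AsnRS-m, GluRS-m, IleRS-m and ValRS-m, had no entry at a start in any candidate list. A missing entry is common: in replicates 1, 2 and 3 an entry was present at 6785, 6669 and 6879 of the 13986 protein-coding genes. Of the 33 members 19, 22 and 19 had one.

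Set against each other, the classes gave 7 of 18 cytosolic genes bound (38.9%, exact 95% interval 17.3 to 64.3) and 2 of 15 mitochondrial genes (13.3%, 1.66 to 40.5), a difference of 25.6 percentage points. Among the strongest 3314 entries of replicates 1, 2 and 3 the cytosolic share was 44.4%, 27.8% and 27.8%, the mitochondrial share 13.3%, 13.3% and 20.0%, and that of all protein-coding genes 14.6%, 15.0% and 15.4%. The means were 33.3% ± 9.62 for cytosolic genes, 15.6% ± 3.85 for mitochondrial genes and 15.0% ± 0.401 for all (SD, n = 3 each). The cytosolic share was higher in 3 of 3 replicates, by 31.1, 14.4 and 7.78 percentage points (17.8 ± 12.0, SD, n = 3), and the intervals over genes overlap. The difference turned to -1.11 with the 1657 strongest IDR peaks, where each class has 1 bound gene, and to -2.22 without replicate 1, so the direction did not hold. The class difference was not tested over the 3 replicates.

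**Figure D4:**
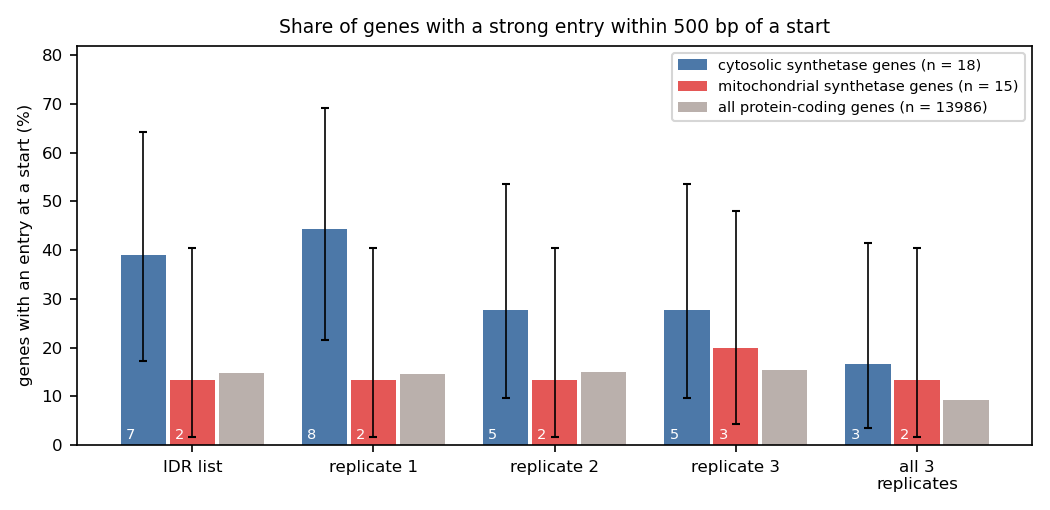
Share of cytosolic genes (blue, n = 18), mitochondrial genes (red, n = 15) and all protein-coding genes (grey) with a strong entry within 500 bp of a start (y axis, %), in the IDR list, among the 3314 strongest entries of each replicate, and in all 3 replicates; white digits count genes and bars on the columns are exact 95% intervals over genes. The intervals of both synthetase classes overlap in every column, and the classes stand at 16.7% and 13.3% in all 3 replicates.

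By recurrence, 4 of the 9 bound genes had their strongest summit within 250 bp of one of the strongest 3314 entries of every replicate: ArgRS-m, SerRS, AspRS and CysRS-m. When the pooled and IDR lists were set aside, 5 genes had such an entry at a start in all 3 replicates, namely these 4 and IleRS (15.2% of 33, against 9.32% of all protein-coding genes). Of the 7 bound cytosolic genes SerRS and AspRS were among the 4, and both bound mitochondrial genes were. ThrRS, MetRS and GlyRS were found in 2 replicates, and GluProRS and LysRS in 1. Recurrence is common over the whole lists. Of the strongest 3314 entries of replicates 1, 2 and 3, at any place, 2030, 2032 and 2056 were shared with both other replicates. The 4 of 9 is therefore not read as a result about the members.

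For 12 pairs, both classes have a gene whose symbol carries the same amino acid code. The cytosolic gene was bound in 3 (AspRS, MetRS, SerRS), the mitochondrial gene in 2 (ArgRS-m, CysRS-m), both in 0 and neither in 7. With 14.8% of all protein-coding genes bound, pairs with both bound would be rare in any case. The 0 is therefore not read as a result about the pairs. For arginine the cytosolic gene ranked 8618 and the mitochondrial gene 151, and for serine the cytosolic gene ranked 919 and the mitochondrial gene had no pooled entry. The remaining bound genes, GluProRS, GlyRS, LysRS and ThrRS, are among the 6 cytosolic genes with no -m gene of the same code. GluProRS nonetheless covers the amino acids of GluRS-m and ProRS-m, neither of which was bound.

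The sequence at the summits was A and T rich. In windows of 201 bp the median G and C content was 31.1% at the 12 peaks, 37.8% at all 1801 IDR promoter summits and 40.8% at the 7379 other pooled promoter summits. The members ranged from 24.4% at CysRS-m and 27.4% at ThrRS to 50.7% at LysRS and 53.2% at the strongest ArgRS-m summit. The letters of 6 motifs were searched on both strands. TACATGG, the most enriched 7-mer of an earlier look at these data, was in 0 of 12 windows, which allows a share of up to 25.0%, against 4.61% of all IDR promoter windows and 1.90% of the others. That limit counts each window as separate, although the 12 windows come from 9 genes. TATAAA, the core of the TATA box, was in 5 of 12 (41.7%), against 35.0% and 27.2%, and 4 of its matches were in the SerRS window.

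The other motifs were rare. CAGCTG, an E-box, was in 2 windows, at ArgRS-m and MetRS (16.7%, against 13.4% of all IDR promoter windows and 11.5% of the others). CATCNCTA or CAGCNCTA (Ohler motif 7) was in 1, at AspRS (8.33%, against 7.22% and 5.39%). TATCGATA (DRE, against 5.61% and 4.55%) and GGTCACACT (Ohler motif 1, against 3.50% and 2.94%) were in 0, and 4 of the 12 windows held none of the 6. A match or its lack describes the letters of these windows only.

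A list of 15 further genes held the alpha and beta subunits of the cytosolic phenylalanyl enzyme and genes that work with the synthetases. Of these 15, 3 were bound (20.0%, against the 14.8% of all protein-coding genes). They were eEF1alpha2 (signal 789, rank 214, summit 35 bp upstream) and eEF1alpha1 (549, rank 472, 244 bp upstream), which encode the elongation factor that delivers charged transfer RNAs, and GatA (192, rank 3153, 117 bp upstream), a subunit of the amidotransferase that makes mitochondrial glutaminyl-tRNA. Both elongation factor genes were among the strongest 3314 entries of every replicate, at ranks 394, 188 and 182 for eEF1alpha2 and 692, 433 and 426 for eEF1alpha1. GatA ranked 3460, 3098 and 7365, so a single replicate placed it there. The cytosolic phenylalanyl subunits were not bound: alpha-PheRS had a pooled entry at rank 9651 and beta-PheRS none in any list. Nor were the scaffold genes of the multi-synthetase complex, AIMP1, AIMP2 (rank 20970) and AIMP3, or Slimp, a paralogue of the mitochondrial seryl enzyme (rank 10435). Of 14 genes that process or modify transfer RNAs 0 were bound, which allows a share of up to 21.4%, against 14.8% of all protein-coding genes. The 0 is therefore not read as a result about these genes. RNaseZ, which trims the 3′ end, came closest at rank 3862. TRMT1, also on this list, was not matched to a gene and is not counted.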

How the data were processed

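ChIP-seq of CG10431-GFP was carried out on 3 biological replicates of whole embryos. Column 7 of each deposited peak list is a signal that the authors' peak caller gave to each entry, on an unstated scale. Per the labels and the deposited notes, coordinates are dm6, each replicate's candidate list was called against the control alignment that all 3 share, the pooled list was called on the 3 alignments together, and the IDR list was derived from these lists. Names of the aligner and caller: not given in the sources used here. Read depth is unknown.

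Summits (column 2 plus column 10, given here 1-based) were joined with Python 3.11.15 and pandas 2.3.3 to transcript starts of Ensembl release 115, whose coordinates equal those of RefSeq (release 6 assembly) for 33 of 33 members. Bound genes have an IDR summit no more than 500 bp from any of their starts. Each replicate was represented by its top 3314 entries by signal, and summits up to 250 bp apart counted as shared. A head-to-head partner is another gene on the other strand whose start lies 0 to 1000 bp upstream. Intervals are exact Clopper-Pearson 95% intervals, limits on counts of 0 are 3 counts divided by the number looked at, and both cover counting error over genes or peaks only. The join was tested on simulated data. Members, lists and motifs were chosen with earlier results of these data known, so no list was tested; every member was named. The alternatives were other windows, starts, overlaps, shared distances, numbers of entries, the 1657 strongest IDR peaks and leaving out each replicate.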

Additional observations from a re-analysis of the deposited data

How the results depend on the processing

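The alternatives that changed which genes were called bound were also counted over all protein-coding genes. The counts of pooled candidate summits, and those of recurrence with other numbers of entries or distances, were not. The 4 other ways of placing a summit (a 250 bp window, a 1000 bp window, only the annotated gene 5′ end, or overlap of the whole interval) left 6 or 7 cytosolic genes and 2 mitochondrial genes bound, and 16 to 18 of the 33 genes with a pooled candidate summit. In that order the bound share of the 33 was 24.2%, 27.3%, 24.2% and 27.3%, against 11.9%, 17.3%, 12.9% and 15.9% of all protein-coding genes. With the 1657 strongest IDR peaks, 1 cytosolic and 1 mitochondrial gene were bound, 2 in all (6.06% of the 33), the difference between classes was -1.11 percentage points, and 2 genes were found in all 3 replicates (7.80% of all protein-coding genes were bound). Keeping only IDR peaks that recur in both other replicates when 1 replicate was left out gave 2 to 4 cytosolic genes, 4 to 6 genes in all (12.1% to 18.2%) and a difference of -2.22 (without replicate 1) to 8.89 (without replicate 2), against 10.0% to 10.7% of all protein-coding genes. By the strongest entries of all 3 replicates, an alternative added after seeing the data, 3 cytosolic genes and 5 in all were called, with a difference of 3.33. The 4 genes found in all 3 replicates became 9 with all candidate entries, 8 with 6628 entries of each replicate, 2 with 1657 and 2 with summits within 100 bp. The cause of these changes was not tested, beyond the shorter lists themselves. Of the 7 bound cytosolic genes 5 rank between 2251 and 3073, with pooled signals of 196 to 235 against the lowest IDR signal of 187. The deposited signal has no stated scale and read depth is unknown, so how firm these calls are cannot be judged from that margin.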

Other observations

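The following groupings were made after the values were seen and carry no test. In mammals the arginyl, aspartyl, glutaminyl, glutamyl-prolyl, isoleucyl, leucyl, lysyl and methionyl enzymes are held together in a multi-synthetase complex; of the 8 fly genes for these enzymes 4 were bound (AspRS, GluProRS, LysRS, MetRS), and of the 10 other cytosolic genes 3 were (GlyRS, SerRS, ThrRS), against 14.8% of all protein-coding genes. By the strongest 3314 entries of replicates 1, 2 and 3 the counts were 4, 3 and 3 of the 8 and 4, 2 and 2 of the 10. The shares of all protein-coding genes were 14.6%, 15.0% and 15.4%. In all 3 replicates 2 of the 8 (AspRS and IleRS) and 1 of the 10 (SerRS) had such an entry, against 9.32% of all protein-coding genes. The partner genes at the bound promoters are of mixed known function, among them a clathrin adaptor subunit (AP-1sigma), a centrosome protein (Plp), a ubiquitin ligase (Hecw) and a fucosyltransferase (O-fut1). The starts of the 9 bound members were a median of 245 bp from the partner's (8 to 466 bp), against 227 bp for the 14 unbound members with a partner (35 to 561 bp) and 298 bp for all protein-coding genes with one. Each gap is the smallest at any start of the gene. For AspRS it is that to Lfg (38 bp), which is not bound. The AspRS start nearest to the strongest summit instead faces Nmda1, 54 bp off.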
